A study of Mus musculus with 12 samples.

Results

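The MAP kinases and the dual-specificity phosphatases that switch them off were followed through 9 genes. They were the kinase genes Mapk3, Mapk8, Mapk9 and Mapk14 and the phosphatase genes Dusp1, Dusp4, Dusp5, Dusp6 and Dusp10. Every non-control probe whose gene name in the array files was one of these symbols was taken, which gave 14 of the 55681 probes and 9 of the 34796 gene names on the array. Mapk8 had 3 probes, Mapk3, Mapk9 and Mapk14 had 2 each, and each phosphatase gene had 1. To be tested, a probe had to be well above background on the 3 arrays of some group. That held for 10 of the 14 probes and for 27801 probes in all. Dusp4, Dusp5 and 2 of the Mapk8 probes did not pass.

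RNA was measured in the aorta of C57BL/6J mice on day 3, with 1 array for each of 12 mice. DMSO mice received the vehicle dimethylsulfoxide, and rapamycin mice received the mTOR inhibitor rapamycin at 2 mg/kg/day in that vehicle. BA+DMSO mice received BAPN (beta-aminopropionitrile) at 150 mg/kg/day, an inhibitor of the enzymes that crosslink collagen and elastin, together with angiotensin II (AngII, 1 ug/kg/min), a vasoconstrictor peptide, and vehicle. BA+rapamycin mice received BAPN and AngII with rapamycin. Each group had 3 mice, male adults per the methods, with no transgene named in any of them, and the challenge with BAPN and AngII is a model of aortic dissection. All levels below are log2 values relative to the 75th percentile of the same array, so 0 marks a probe as bright as that percentile.

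MAP kinases are the last step of a cascade of kinases in which each enzyme phosphorylates the next. Mapk3 encodes ERK1, which carries signals of growth factors. Mapk8 and Mapk9 encode the stress kinases JNK1 and JNK2, and Mapk14 encodes the stress kinase p38 alpha. A MAP kinase is active while a threonine and a tyrosine of its activation loop are phosphorylated, and dual-specificity phosphatases remove both phosphates. Dusp6 acts in the cytoplasm and prefers ERK, Dusp5 prefers ERK in the nucleus, Dusp1 and Dusp4 are inducible enzymes of the nucleus, and Dusp10 prefers JNK and p38. AngII is a known activator of all 3 kinase branches in vascular smooth muscle. The arrays measured RNA and not phosphorylation, and in whole tissue fewer cells of a type and less RNA per cell cannot be told apart.

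The arrays differed in ways that bear on every value below. Brightness, read as the 75th percentile of an array's signals, ranged from 222 to 280 intensity units on DMSO arrays and from 257 to 337 on rapamycin arrays, but was 132, 78.1 and 246 on BA+DMSO arrays 1 to 3 and 74.6 to 109 on BA+rapamycin arrays. All DMSO arrays lay on slide 1 together with rapamycin replicate 1, and the other 8 arrays lay on slide 2, so that slide and challenge cannot be told apart between DMSO and BA+DMSO. Across probes, BA+DMSO arrays correlated with each other at 0.950 to 0.974, and arrays within each of the other groups at 0.974 to 0.989. All 8 smooth muscle markers examined were well above background on some array of each group. Macrophage markers moved with the challenge: 7 of 8 were called higher in BA+DMSO than in DMSO, and their summed level was 111 to 142 in DMSO, 127 to 148 in rapamycin, while BA+DMSO mice had 204 to 490 and BA+rapamycin mice 382 to 509, in units of the 75th percentile. The 7 called markers differed by 1.64 to 2.63 on the log2 scale. The sum was mostly the signal of Itgam, the marker not called (1.13, adjusted p = 0.0906), and does not describe the other 7. None of the 8 was below background on all arrays of a group. Of the other lists, 1 of 4 neutrophil, 2 of 5 lymphocyte, 3 of 7 endothelial, 1 of 6 fibroblast and 2 of 7 adipocyte markers were called higher, and 1 of 8 smooth muscle and 1 of 5 striated muscle markers were called lower. Over all 27801 tested probes, 2683 were called higher and 3014 lower in BA+DMSO than in DMSO. The part of other cell types in the results below was not tested.

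The challenge lowered RNA of the phosphatases Dusp10 and Dusp1 and of 1 probe of the JNK2 gene Mapk9. These were 3 of the 10 tested probes, where 20.5% of all tested probes were called in this contrast at an adjusted p under 0.05. No member probe was called higher. The groups did not overlap for the same 3 probes, as was so for 34.6% of all tested probes. The median difference of the 10 probes was 0.13, against -0.04 for all 27801 probes. Without DMSO replicate 1, without DMSO replicate 2 or without BA+DMSO replicate 1, the count was 1, which was Dusp10, where 11.8%, 7.38% and 11.2% of all probes were called in the same order. With slide as a fixed block none of the 3 stayed called, where 0.054% of all probes were called. The differences were then -2.10 for Dusp10, -1.35 for Dusp1 and -0.71 for Mapk9 probe 1 (limma adjusted p = 0.513, 0.456 and 0.506). Only the rapamycin group lay on both slides, so the slide term rested on rapamycin replicate 1 against replicates 2 and 3.

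**Figure D1:**
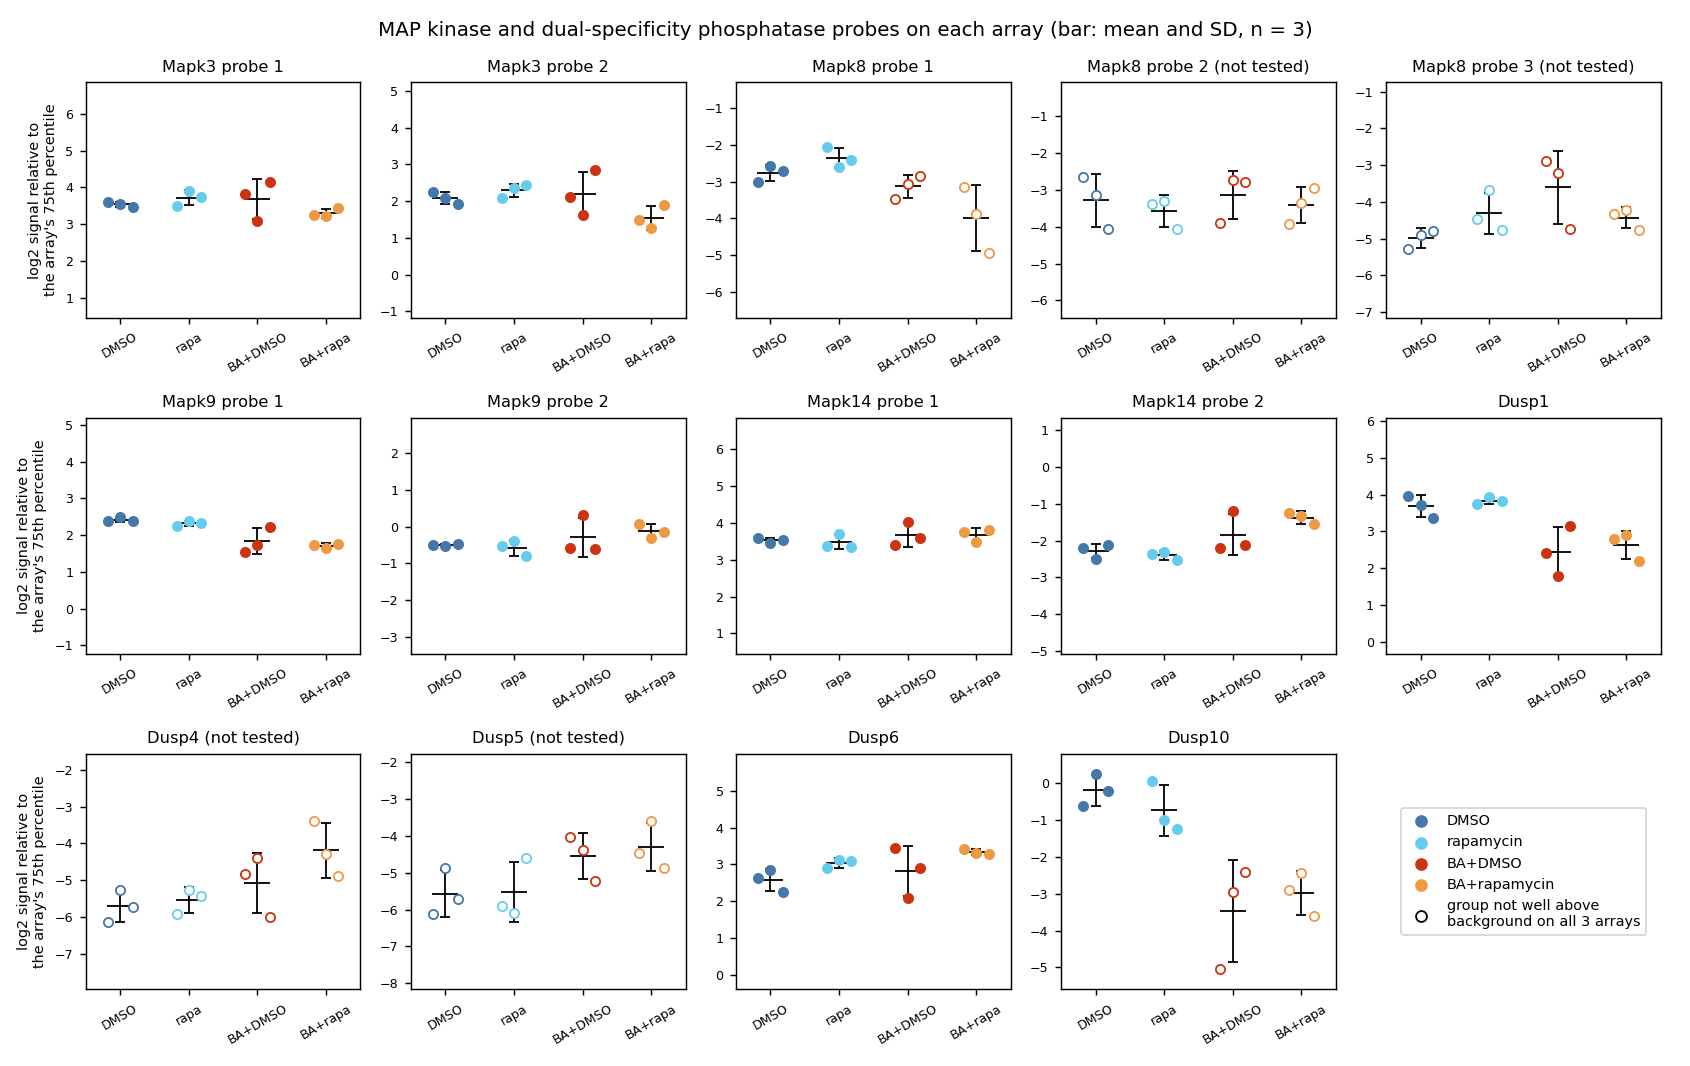
Log2 signal relative to the 75th percentile of the array (vertical axes, of equal span) for the 14 probes in the 4 groups. Points are arrays, bars are the mean and SD of 3 arrays, and open points mark groups in which the probe was not well above background on all 3 arrays. Dusp10 lay between -1.25 and 0.25 in the 6 unchallenged mice and between -5.05 and -2.42 in the 6 challenged mice.

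Dusp10, the phosphatase that prefers JNK and p38, had the largest fitted difference of the members in the challenge, except with normexp background correction. That rank has no exact size behind it, since 1 of 3 BA+DMSO arrays was well above background. The level of Dusp10 was -0.61, 0.25 and -0.21 in DMSO and 0.06, -0.99 and -1.25 in rapamycin. It was -5.05, -2.94 and -2.42 in BA+DMSO and -2.89, -2.44 and -3.61 in BA+rapamycin. All 6 challenged mice were below all 6 unchallenged mice. With the challenge the fitted Dusp10 difference was -3.28 on the log2 scale (SE 0.61, adjusted p = 0.00496). The probe was well above background on 3 of 3 DMSO arrays and on 1 of 3 BA+DMSO arrays. The size of that difference is therefore not exact, and no fold is given. By these values Dusp10 alone among the members met the rule in the study's methods, a fold above 4 with unadjusted p below 0.01. The fold in that rule rests on the same dim signals. The probe passed the filter through the unchallenged groups, where it is high. It is not among the 8 member probes that remain when only probes well above background on all 12 arrays are tested. It fell by 2.49 without BA+DMSO replicate 1 and fell by 1.12 with normexp, and was called in both, while with normexp Dusp1 fell by 1.36. Under rapamycin it fell by 2.25 (SE 0.61, adjusted p = 0.0151). That call was lost with normexp (-0.51, adjusted p = 0.113), with the brightness covariate (-2.24, adjusted p = 0.270) and without BA+rapamycin replicate 3 (-1.94, adjusted p = 0.0562). It was also lost with slide as a fixed block and without rapamycin replicate 1, which gave the same values (-1.86, limma adjusted p = 0.0583). No BA+rapamycin array was well above background for Dusp10. With values below an array's dimmest signal that counted as above background raised to it, the fall was 3.87-fold. That is not a lower bound, since BA+rapamycin replicate 1 at -2.89 lay above that signal (-2.95) without being well above background.

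Dusp1, the inducible nuclear phosphatase, was well above background on all 12 arrays. Its level was 3.95, 3.71 and 3.36 in DMSO and 3.75, 3.92 and 3.83 in rapamycin. It was 2.41, 1.79 and 3.13 in BA+DMSO and 2.80, 2.91 and 2.18 in BA+rapamycin. The highest challenged value, 3.13 in BA+DMSO replicate 3, came from the brightest challenged array and was below the lowest unchallenged value. With the challenge Dusp1 fell by 1.23 (SE 0.32, adjusted p = 0.0215, 2.34-fold). Under rapamycin it fell by 1.20 (SE 0.32, adjusted p = 0.0135, 2.30-fold). With the brightness covariate both calls were lost, at -0.67 and -0.21 (adjusted p = 0.167 and 0.800), and without BA+rapamycin replicate 3 the call under rapamycin was lost at -0.98 (adjusted p = 0.0540).

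Sequences are shown for the genes called lower in the challenge, to set the stretch before each start site beside the measured fall. The RefSeq promoter table (GRCm38.p6) held 7 of the 9 members with 9 start sites; Mapk3 and Dusp4 are the missing entries. The 250 bases before the start site were searched on both strands for TGACGTCA (the cyclic AMP response element, CRE) and for its core TGACGT. The other motifs were the AP-1 element TGANTCA, the CCAAT box and the CArG box of serum response factor. Any CRE also counts as a match to its core. Matches are in capitals. Dusp1 is at chr17:26508473-26508722 on the minus strand, Dusp10 at chr1:184034131-184034380 on the plus strand and Mapk9 at chr11:49846501-49846750 on the plus strand.
Dusp1: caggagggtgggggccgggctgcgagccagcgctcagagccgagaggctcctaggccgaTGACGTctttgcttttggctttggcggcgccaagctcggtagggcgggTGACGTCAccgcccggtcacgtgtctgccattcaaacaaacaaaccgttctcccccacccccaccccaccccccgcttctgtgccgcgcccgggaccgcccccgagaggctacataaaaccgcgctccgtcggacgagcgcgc
Dusp10: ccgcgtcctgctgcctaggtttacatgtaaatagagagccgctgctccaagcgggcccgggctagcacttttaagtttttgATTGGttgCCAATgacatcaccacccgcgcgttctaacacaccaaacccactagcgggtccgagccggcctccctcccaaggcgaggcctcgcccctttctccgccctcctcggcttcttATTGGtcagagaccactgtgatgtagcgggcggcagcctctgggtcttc
Mapk9: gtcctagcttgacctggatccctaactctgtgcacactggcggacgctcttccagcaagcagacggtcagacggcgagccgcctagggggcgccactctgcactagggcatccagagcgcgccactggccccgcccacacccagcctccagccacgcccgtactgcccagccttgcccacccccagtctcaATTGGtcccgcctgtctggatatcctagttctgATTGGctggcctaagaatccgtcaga

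The Dusp1 stretch held 1 CRE, 143 to 136 bases before the start site, and a separate core TGACGT 191 to 186 bases before it. A CRE was present in 1.55% of the 32851 stretches of that length in the table, and the core in 6.47%. Dusp10 and Mapk9 held neither, but held 3 and 2 matches to CCAAT, which 33.8% of stretches held. No member of the table held the AP-1 element, which 6.75% of stretches held. Among the other members, Dusp5 held 2 CArG boxes, which lay side by side, where 1.47% of stretches held any, and Dusp5 and 1 of the Mapk8 start sites held the core of the CRE. These matches describe the letters alone.

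The probes themselves differ in where they lie on the transcript. The first 30 of 60 bases are given for the probes whose results are set against each other below, with the pentamer ATTTA in capitals. This pentamer, found in AU-rich elements of short-lived transcripts, occurred in the Dusp1 probe and in no other of the 14. Each probe is named with its position on mm9 (NCBI37) as the array files give it, and where a gene has several probes, probe 1 is the one with the highest mean among those tested. The files place the Dusp1 probe at chr17:26642526-26642536, which spans 11 of its 60 bases. Mapk9 probe 1 is at chr11:49699496-49699555 (transcript position 4254), and probe 2 is at chr11:49677113-49677172 (transcript position 462). Mapk14 probe 1 is at chr17:28885290-28885349 (transcript position 3532), and probe 2 is at chr17:28873965-28874024 (transcript position 1134). The positions of the Mapk9 probes refer to different transcripts, those of the Mapk14 probes to the same one. An exon and UTR annotation of mm9 was not used here.
Dusp1: gcgtatgagagtttttacctttATTTAttt
Mapk9 probe 1: cagatcgcgtatctcaaaagtggctttgcc
Mapk9 probe 2: caaacgcacgcaaagagagcctaccgtgaa
Mapk14 probe 1: ggtatgccataggatgtcagataataccac
Mapk14 probe 2: agttgaagctcattttaagactcgttggaa

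The JNK2 gene Mapk9 was called at 1 of its 2 probes. Probe 1 was at 2.39, 2.48 and 2.38 in DMSO and at 2.24, 2.39 and 2.34 in rapamycin. It was at 1.54, 1.73 and 2.23 in BA+DMSO and at 1.74, 1.64 and 1.76 in BA+rapamycin. With the challenge it fell by 0.58 (SE 0.18, adjusted p = 0.0452, 1.5-fold), and under rapamycin it fell by 0.61 (SE 0.18, adjusted p = 0.0228, 1.52-fold). BA+DMSO replicate 3 was closest to the unchallenged range. The call in the challenge was lost when any 1 of the 12 arrays other than BA+DMSO replicate 3 was left out, with adjusted p from 0.0559 to 0.150. The call under rapamycin was lost without rapamycin replicate 2 or 3 and without BA+rapamycin replicate 2 or 3, with adjusted p from 0.0531 to 0.0708. Probe 2 differed by 0.21 in the challenge (SE 0.25, adjusted p = 0.574) and by 0.45 in the challenge under rapamycin (SE 0.25, adjusted p = 0.157). Its highest array was BA+DMSO replicate 2 at 0.31, and over the 12 arrays the levels of the 2 probes correlated at -0.56, with each pair of points from 1 array, and at -0.19 with the group means removed. The difference between the probes was not tested.

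The JNK1 gene Mapk8 was dim. Its tested probe was at -3.01, -2.57 and -2.71 in DMSO and at -2.07, -2.60 and -2.41 in rapamycin. It was at -3.46, -3.07 and -2.84 in BA+DMSO, where 1 of 3 arrays was well above background, and at -3.15, -3.88 and -4.93 in BA+rapamycin, where none was. With the challenge under rapamycin it fell by 1.63 (SE 0.38, adjusted p = 0.00744). The fall was 1.26-fold with BA+rapamycin values raised to the lowest signal well above background on each array, which is not a lower bound. The probe passed the filter through the unchallenged groups, where it is high. The direction turned with normexp background correction (0.34, adjusted p = 0.141), and the call was lost with the brightness covariate (-1.53, adjusted p = 0.214). The challenge without rapamycin gave -0.36 (SE 0.38, adjusted p = 0.523), and the test of that difference is the interaction given below. The other Mapk8 probes were not well above background on most arrays and ranged from -4.07 to -2.66 and from -5.28 to -2.88.

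The p38 alpha gene Mapk14 was called at 1 of its 2 probes, and the difference between the probes was not tested. Probe 2 was at -2.21, -2.49 and -2.13 in DMSO and at -2.36, -2.32 and -2.54 in rapamycin. It was at -2.21, -1.21 and -2.12 in BA+DMSO and at -1.24, -1.33 and -1.56 in BA+rapamycin. All BA+rapamycin arrays and BA+DMSO replicate 2 were above every other array. The difference was 1.03 in the challenge under rapamycin (SE 0.25, adjusted p = 0.00948, 2.04-fold) and 0.43 in the challenge (SE 0.25, adjusted p = 0.242). Probe 1, which ranged from 3.35 to 4.02 over all arrays, gave 0.21 (SE 0.19, adjusted p = 0.401) and 0.14 (SE 0.19, adjusted p = 0.638) in the same order. The levels of the 2 probes correlated at 0.70 over 12 arrays. With the brightness covariate the probe 2 call under rapamycin was lost (0.26, adjusted p = 0.661).

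The ERK1 gene Mapk3 was not called in any contrast of the main fit. Among the alternatives, normexp called both probes lower in the challenge under rapamycin, at -0.80 and -0.93 (adjusted p = 0.0306 and 0.0168). Further settings called 1 or both probes lower there, where 28.6% to 56.9% of all probes were called. They were slide 2 alone, the 6 arrays compared, and only probes well above background on all arrays. Leaving out BA+rapamycin replicate 3, BA+DMSO replicate 2 or BA+DMSO replicate 3 did so too. The brightness covariate called both higher in the challenge, as given below. Probe 1 was at 3.62, 3.54 and 3.47 in DMSO, at 3.5, 3.92 and 3.74 in rapamycin, at 3.82, 3.09 and 4.15 in BA+DMSO and at 3.24, 3.21 and 3.44 in BA+rapamycin. BA+DMSO thus held both the lowest and the highest array. The difference of BA+rapamycin from rapamycin was -0.42 (SE 0.24, adjusted p = 0.18). Probe 2 followed probe 1 (correlation of 0.92 over 12 arrays) and differed by -0.75 in that contrast (SE 0.28, adjusted p = 0.0526).

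Dusp6, the cytoplasmic phosphatase of ERK, was bright and was not called in any contrast. Its level was 2.62, 2.84 and 2.24 in DMSO, 2.89, 3.13 and 3.09 in rapamycin, 3.45, 2.10 and 2.91 in BA+DMSO, and 3.43, 3.30 and 3.28 in BA+rapamycin. Rapamycin arrays were above DMSO arrays without overlap, by 0.47 (SE 0.29, adjusted p = 1), where 21.5% of all probes did not overlap in this contrast, and BA+rapamycin arrays differed from rapamycin arrays by 0.30 (SE 0.29, adjusted p = 0.421). BA+DMSO replicate 2 was the lowest of all 12 arrays. The interval of the challenge difference ran from -0.40 to 0.90.

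Dusp4 and Dusp5 were not well above background on any of the 12 arrays and were not tested. Dusp4 ranged from -6.14 to -5.26 in the unchallenged groups and from -5.99 to -3.39 in the challenged groups. Dusp5 ranged from -6.12 to -4.60 and from -5.23 to -3.59 in the same groups. No fold is given for either, since both sides of each comparison are below the limit of detection.

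The challenge was also compared between the mice that received rapamycin. In BA+rapamycin against rapamycin, 5 of the 10 tested probes were called, where 41.7% of all tested probes were. Mapk8, Mapk9 probe 1, Dusp1 and Dusp10 were lower and Mapk14 probe 2 was higher. Groups did not overlap for 9 of the 10 probes, as for 65.9% of all tested probes. The median difference was -0.51 over the 10 probes and -0.08 over all. When BA+rapamycin replicate 3 was left out, 3 probes were called, of Mapk3, Mapk8 and Mapk14, where 28.6% of all probes were, and without BA+DMSO replicate 2 the count was 8, where 56.9% of all probes were then called. This contrast can also be made within slide 2, with 2 rapamycin arrays. The sample titles carry numbers that read as dates, and on slide 2 no BA+rapamycin title shares one with a rapamycin title, so such dates and challenge cannot be told apart there. In that fit, 6 probes were called against 46.2% of all, and the differences were -1.24 for Dusp1, -1.86 for Dusp10, -0.65 for Mapk9 probe 1, 1.05 for Mapk14 probe 2 and -1.48 for Mapk8, the last no longer called (adjusted p = 0.0627). Mapk3 was called lower at both probes on slide 2, with differences of -0.53 and -0.86.

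**Figure D2:**
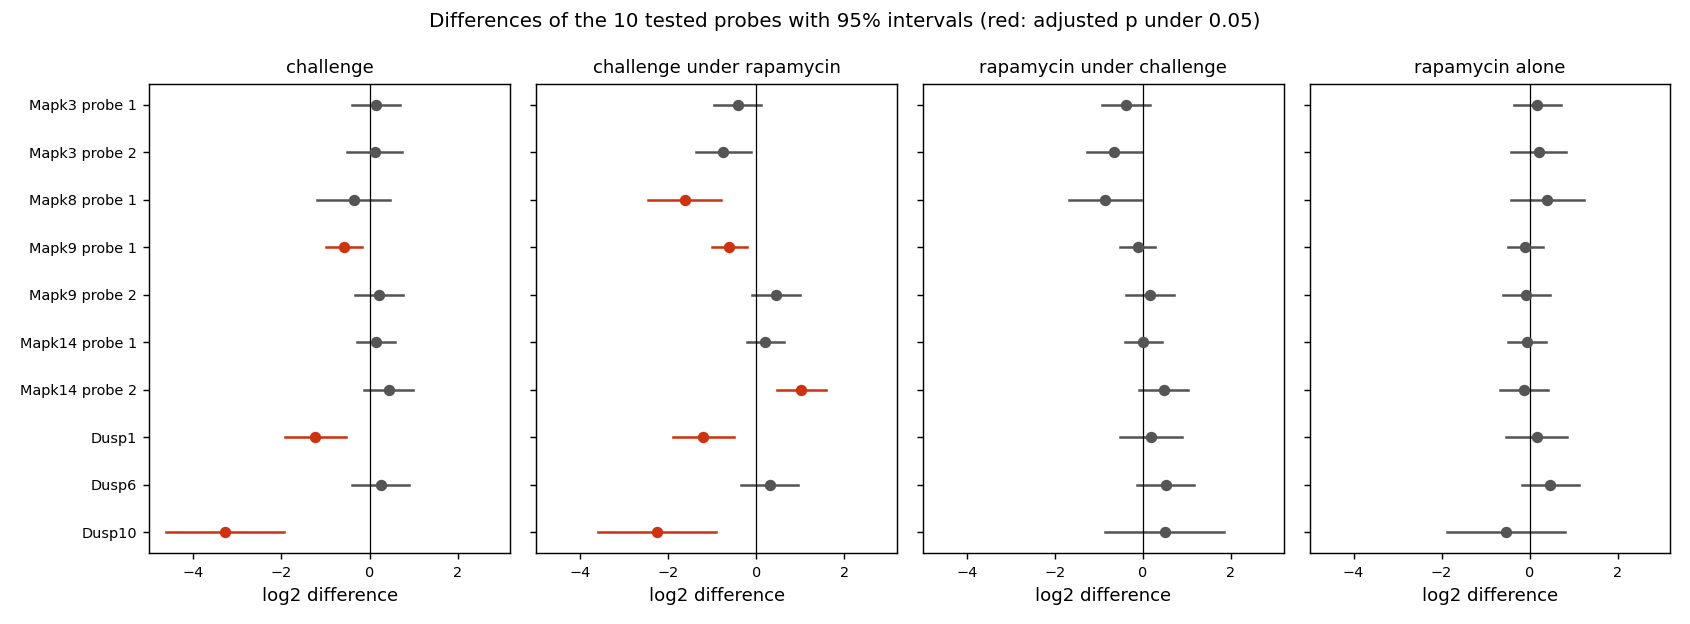
Log2 differences (horizontal axes) of the 10 tested probes in 4 contrasts. Points are differences between group means of 3 arrays each, lines are 95% intervals from the limma fit and red marks an adjusted p under 0.05. Dusp10 and Dusp1 lie below 0 in both challenge contrasts, and every interval of rapamycin alone includes 0.

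Rapamycin itself called none of the 10 probes. In BA+rapamycin against BA+DMSO the count was 0, against 0.281% of all tested probes, and 2 probes had an unadjusted p under 0.05 by limma: Mapk8 at -0.86 (SE 0.38, adjusted p = 0.236) and Mapk3 probe 2 at -0.66 (SE 0.28, adjusted p = 0.234). The differences of Dusp1 and Dusp10 were 0.18 (SE 0.32) and 0.49 (SE 0.61), with intervals from -0.52 to 0.88 and from -0.85 to 1.84. In rapamycin against DMSO the count was also 0, against 0.0036% of all, and no member had an unadjusted p under 0.05. The interaction, which asks whether rapamycin acted differently with and without the challenge, called 0 probes of the array (0%), and Mapk8 alone among the members had an unadjusted p under 0.05 (-1.27, SE 0.53, adjusted p = 0.737). Leaving out BA+DMSO replicate 2 changed the first and the last of these counts. Without it, 4 member probes were called in BA+rapamycin against BA+DMSO, where 39.9% of all probes then were: Mapk3 at both probes (-0.69 and -0.94), Mapk9 probe 2 (0.47) and Mapk14 probe 2 (0.79). The interaction then called Mapk3 probe 1 (-0.86) and Mapk14 probe 2 (0.91), where 11% of all probes were called.

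Several of these levels were set beside the brightness of the array. Among BA+DMSO arrays, replicate 3 was the brightest and had the highest Dusp1, Mapk3 and Mapk9 probe 1 values, and replicate 2 was the dimmest and had the highest Mapk14 probe 2 and the lowest Dusp1, Dusp6 and Mapk3 probe 1 values. The order did not hold in every case: the dimmest BA+rapamycin array, replicate 2, had the highest Dusp1 of its group (2.91), and Mapk14 probe 2 was at -2.21 in BA+DMSO replicate 1, near the -2.12 of the brighter replicate 3. These orders were read from single arrays, and whether brightness set the levels was not tested. With the brightness of the array as a covariate in limma, the challenge differed by -0.67 for Dusp1 (adjusted p = 0.167) and by -0.32 for Mapk9 probe 1 (adjusted p = 0.222). Dusp10 stayed called in that fit and Mapk3 became called higher at both probes, by 0.65 and 0.78 (adjusted p = 0.0427 and 0.0143), where 18.3% of all probes were called. In the challenge under rapamycin, that fit called none of the 10 probes, and 6.42% of all. Brightness did not overlap there, at 257 to 337 in rapamycin and 74.6 to 109 in BA+rapamycin. Among challenged arrays only BA+DMSO replicate 3 (246) reached the DMSO range of 222 to 280. Brightness and challenge are thus not well separated by this covariate. The differences in the challenge under rapamycin were -2.24 for Dusp10 and -1.53 for Mapk8, but -0.21 for Dusp1, -0.15 for Mapk9 probe 1 and 0.26 for Mapk14 probe 2.

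**Figure D3:**
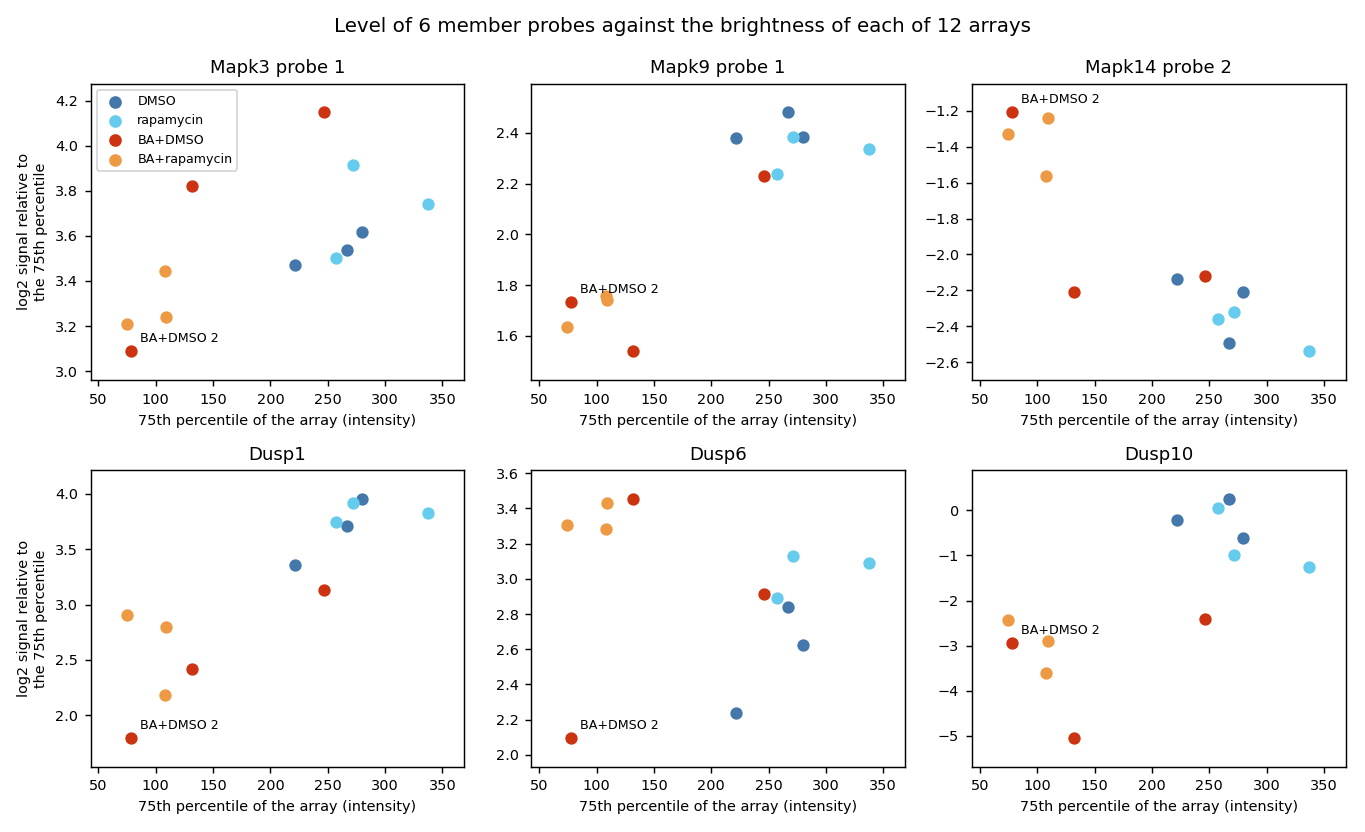
Level of 6 member probes (vertical axes, log2 relative to the 75th percentile) against the 75th percentile of each of the 12 arrays (horizontal axes, intensity units). Points are arrays, coloured by group. BA+DMSO replicate 3, at 246, lies near the unchallenged arrays for Mapk14 probe 2 and apart from them for Dusp10.

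Genes with the pattern most like each member were found by Pearson's correlation over the 12 arrays among 27800 probes, as a description. Mapk3 was closest to Tymp (0.97) and Cdipt (0.97), and Mapk9 probe 1 to a noncoding RNA probe of chromosome 19 (0.99) and Pde3a (0.99), a cyclic nucleotide phosphodiesterase. Mapk14 probe 1 was closest to Tysnd1 (0.96) and Tcf20 (0.94), and Mapk8 to Rpap2 (0.95) and a noncoding RNA probe of chromosome 14 (0.95). Dusp1 was closest to Nfrkb (0.98) and Slc4a9 (0.97), Dusp6 to the ribosomal protein genes Rps18 (0.94) and Rpl9 (0.93), and Dusp10 to Nkx6-1 (0.97). Among probes of different members, the highest correlations were those of Mapk9 probe 1 with Dusp10 (0.88), Mapk9 probe 2 with Mapk14 probe 2 (0.88), Mapk9 probe 2 with Mapk14 probe 1 (0.87) and Mapk9 probe 1 with Dusp1 (0.86). With the group means removed they were 0.55, 0.89, 0.85 and 0.53 in the same order.

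The rest of the pathway was read from 92 genes in 8 lists, of which 74 were tested, each by its brightest probe. In the challenge 10 genes were called higher and 16 lower, where 20.5% of all probes were called in either direction. With the brightness covariate 12 were higher and 9 lower, where 18.3% of all probes were called. With slide as a fixed block none of the 74 was called, where 0.054% of all probes were. In that limma fit 16 had an unadjusted p under 0.05. With the covariate, 1 of the other MAP kinases was higher, 2 of the kinases above the MAP kinase kinases were lower with none higher, and 1 of the other phosphatases was higher and 2 were lower. With neither, the median difference was -0.06, against -0.04 over all probes. Among other MAP kinases, 2 of 7 were higher and none lower: Mapk11, which encodes p38 beta, by 2.20 (SE 0.29, adjusted p = 0.000906) and Mapk13, which encodes p38 delta, by 0.89 (SE 0.28, adjusted p = 0.0432). Of 7 MAP kinase kinases, Map2k6, which phosphorylates p38, fell by 1.81 (SE 0.41, adjusted p = 0.0128) and no other was called. That list held 1 higher and 1 lower without BA+DMSO replicate 2, and 1 higher and none lower with the brightness covariate. Of 19 kinases above them, 1 was higher and 5 were lower. Map3k14 was higher by 0.78 (adjusted p = 0.0254), and Map3k1 and Map3k4 were lower, with differences of -0.87 (adjusted p = 0.00656) and -0.79 (adjusted p = 0.0122). Among the other lower genes were Taok1 and Braf, named after their values were seen.

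Among kinases that MAP kinases activate, 2 of 10 were higher and 1 was lower, where 20.5% of all probes were called. With the brightness covariate 3 were higher and none lower, where 18.3% of all probes were called. Rps6ka1, a ribosomal S6 kinase downstream of ERK, rose by 1.83 (SE 0.24, adjusted p = 0.000948). Mapkapk3, downstream of p38, rose by 0.92 (SE 0.23, adjusted p = 0.0177). Rps6ka5 fell by 0.94 (SE 0.21, adjusted p = 0.0128), and was well above background on 3 of 3 DMSO and 2 of 3 BA+DMSO arrays. Of 11 other dual-specificity phosphatases, 1 was higher and 3 were lower. Dusp22 rose by 1.07 (adjusted p = 0.00710), and Dusp8, which prefers JNK and p38, fell by 2.13 (SE 0.31, adjusted p = 0.00165), and Dusp28 fell by 1.45 (adjusted p = 0.00621). The other lower gene was Dusp16, a phosphatase of JNK, at -1.0 (adjusted p = 0.0126), named after its value was seen. None of 3 tested Sprouty and Spred genes, inhibitors of the ERK branch, was called, and none had an unadjusted p under 0.05 in the limma fit. Without BA+DMSO replicate 2, and likewise with the brightness covariate, 1 of the 3 was called higher, where 27.2% and 18.3% of all probes were.

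Genes that MAP kinases turn on were read in 2 lists, which were not tested against each other. In the challenge 20.5% of all probes were called in either direction. Of 11 immediate early genes, 6 were lower and none higher, with a median difference of -0.69. The largest falls were Atf3 (-5.10, SE 0.50, adjusted p = 0.000250), Fos (-3.39, SE 0.62, adjusted p = 0.00451) and Fosb (-2.41, SE 0.41, adjusted p = 0.00335), which encode transcription factors. Fos was well above background on 3 of 3 DMSO and 2 of 3 BA+DMSO arrays. Of the 6 genes listed as ERK output, genes that follow sustained ERK activity, 4 were higher and none lower, with a median of 1.31. Dusp6 (0.25, limma adjusted p = 0.578) and the 3 tested Sprouty and Spred genes were not in that list, and none was called. Etv4 rose by 2.06 (SE 0.24, adjusted p = 0.000607), Ccnd1, which encodes cyclin D1, by 1.88 (SE 0.25, adjusted p = 0.000906) and Epha2 by 1.62 (SE 0.35, adjusted p = 0.0103), and the other, Etv5, was named after its value was seen. Without BA+DMSO replicate 2, 27.2% of all probes were called. The immediate early list then held 2 higher and 6 lower and the ERK output list 4 higher. With brightness as a covariate, which called 18.3% of all probes, the lists held 1 higher and 5 lower and 4 higher. With slide as a fixed block, which called 0.054% of all probes, neither list held a called gene, and the medians were -1.05 and 1.32. That slide term rested on rapamycin replicate 1 against replicates 2 and 3.

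**Figure D4:**
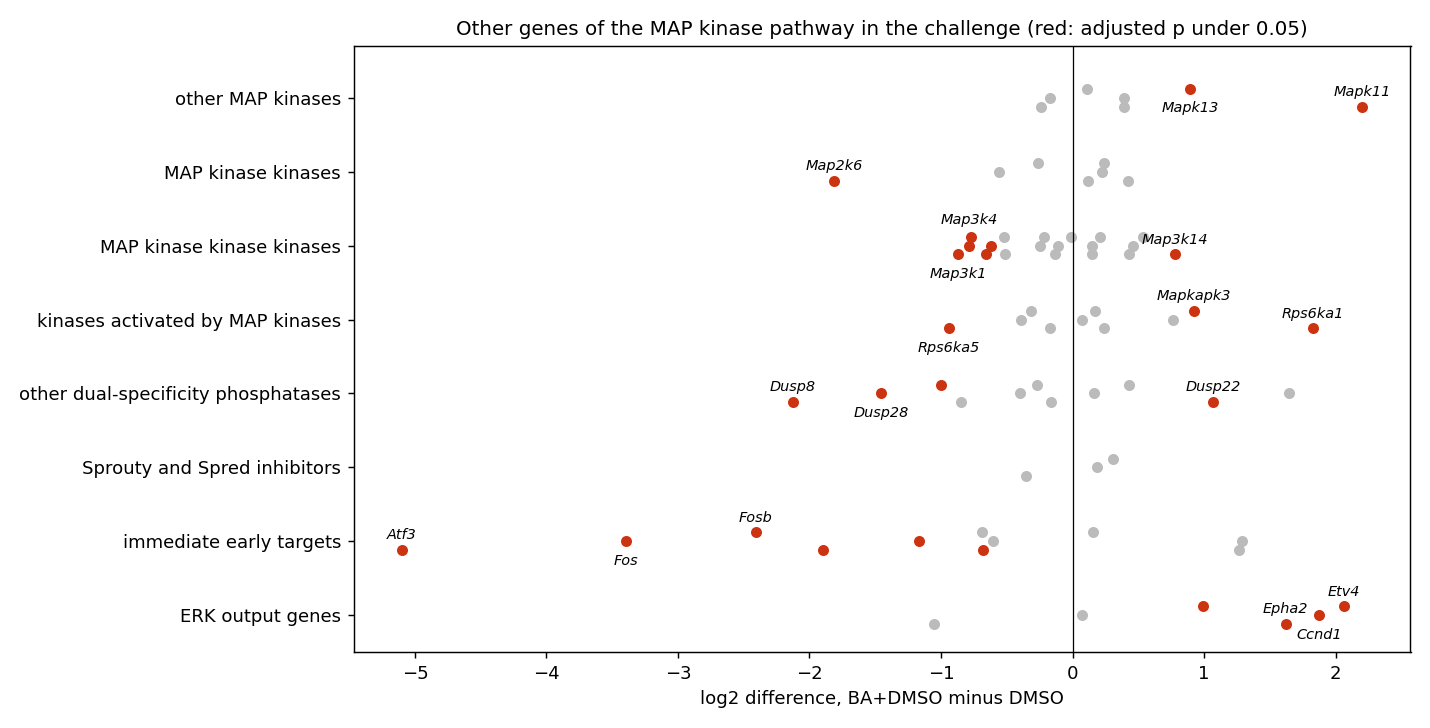
Log2 difference of BA+DMSO minus DMSO (horizontal axis) for the 74 tested genes of the 8 lists, 1 point per gene, red where the adjusted p was under 0.05. Named points are at most the 3 largest called differences of a list. The called immediate early genes all lie below 0 and the called ERK output genes all lie above it.

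In the challenge under rapamycin, 13 of the 74 pathway genes were higher and 23 lower, where 41.7% of all probes were called. With the brightness covariate 2 were higher and 4 lower, where 6.42% of all probes were called. In the fit without that covariate, 5 of 11 immediate early genes were lower and 1 was higher, and 4 of 6 ERK output genes were higher and 1 was lower. The lower ERK output gene was Epha4, at -1.95 by limma (adjusted p = 0.00661), named after its value was seen. In BA+rapamycin mice its probe was never well above background, so the size of that fall is not exact. That probe passed the filter through the unchallenged groups. Mapk11, Rps6ka1 and Map2k6 differed by 2.14, 1.86 and -2.0 in the challenge under rapamycin. Both challenge contrasts use different mice, but each shares its arrays with a rapamycin contrast. BA+rapamycin against BA+DMSO, rapamycin against DMSO and their interaction called none of the 74 by limma, with 9, 6 and 4 at an unadjusted p under 0.05. Without BA+DMSO replicate 2 the first called 6 higher and 11 lower and the interaction 2 higher and 2 lower, where 39.9% and 11% of all probes were called. With all arrays, in the first of these the 11 immediate early genes all had a higher mean in BA+rapamycin than in BA+DMSO, with a median of 0.64 and none called. Without BA+DMSO replicate 2 that median was 0.35 and 2 genes were called higher.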

How the data were processed

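The authors labelled total RNA of 12 aortas with Cy3 and hybridised it to 1-colour Agilent arrays on 2 slides. Feature Extraction 10.7.1.1 is named per the file headers, while the submitters' processing notes name 9.5.1.1. The deposited processed signal is a background-subtracted intensity on a linear scale. The deposited columns that mark spots as well above background, saturated or outliers hold flags of 0 or 1. The deposited matrix holds linear intensity that appears quantile normalized from its values (lowest correlation with an own quantile normalization 0.9999). The authors' normalization is not stated.

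Outlier spots were dropped, signals put on the log2 scale, spots of a probe averaged and each array scaled by its 75th percentile. No spot of a member was saturated. A probe was well above background where a share of at least 0.5 of its spots was. Of 55681 probes, 6 had no value on some array. One limma 3.58.1 model (R 4.3.3, package data.table, version 1.17.8; prior of 3.02 degrees of freedom) held all 4 groups of 3. Tests were two-sided and adjusted by Benjamini-Hochberg over 27801 probes per contrast. The fit was tested on simulated data with equal spread in all groups and no slide or brightness effect. That test does not cover those features of these arrays. A fold of a group below background was computed against the lowest signal well above background on each array, or the probe's own value where higher. Such a fold is not a lower bound. The number of arrays limits the precision. P-values set each difference against a spread within groups that is pooled over the 4 groups. With 1 array per mouse, that spread holds differences between mice and between arrays alike.

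Samples were grouped by their treatment labels, with replicates numbered in order of deposition. The titles of DMSO samples begin with Pre, while the series record names DMSO alone. The members, gene lists and tests were chosen with earlier results of these data known. Every member probe was named, with the 3 largest called differences of each pathway list and the 2 genes most like each member, except that a few genes are not reported here. Alternatives were other normalizations, filters, slide or brightness in the model, the study's rule, fewer arrays, and a replicate block.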

Additional observations from a re-analysis of the deposited data

How the results depend on the processing

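The alternatives kept the direction of the 8 called single-probe differences in all but 1 of 178 recomputations, and the call in 139 of them. In part of these recomputations the difference could not change. This was so when an array outside the contrast was left out, only the filter changed, or only the arrays compared were fitted. In the challenge under rapamycin, slide as a fixed block and leaving out rapamycin replicate 1 gave the same values. They count as separate recomputations. Of the 38 lost calls, 15 were those of Mapk9 probe 1 in the challenge, which was kept in 7 of 22. Mapk14 probe 2 under rapamycin was kept in 22 of 23. Dusp10 in the challenge was kept in 20 of 21, but it is not tested among probes well above background on all arrays. Its tally therefore does not describe a probe above background in both groups. The exception was Mapk8 in the challenge under rapamycin, at 0.34 with normexp background correction, where it is dim. The 3 probes called in the challenge became 0 with slide as a fixed block (0.054% of all probes called), 1 by the study's rule (2.51%), 1 in a fit of the 6 arrays compared (4.47%), and 1 to 3 when single arrays were left out. The count was 1, Dusp10, without DMSO replicate 1, without DMSO replicate 2 or without BA+DMSO replicate 1 (11.8%, 7.38% and 11.2% of all probes). The 5 probes called in the challenge under rapamycin became 0 with brightness as a covariate (6.42% of all probes), 1 by the study's rule (5.14%), and 3 to 8 when single arrays were left out (3 without BA+rapamycin replicate 3, with 28.6% of all probes, and 8 without BA+DMSO replicate 2, with 56.9%). Leaving out single arrays gave 0 to 4 for rapamycin under challenge and 0 to 2 for the interaction, with the highest counts without BA+DMSO replicate 2 (39.9% and 11% of all probes). The cause of these shifts was not tested. With normexp 2 probes were higher and 4 lower in the challenge under rapamycin (62.4% of all probes called), and the median difference of all probes moved from -0.08 to 0.14 there. With no filter on dim probes that median was 0.85, and 1 of 6 called probes was Dusp4 (53.3% of all probes called).

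For rapamycin alone, a replicate block on the title numbers shared by 2 DMSO and 2 rapamycin arrays called 0 member probes, as did every other alternative. Deviations of samples of the same number from their group means correlated at -0.07 over probes. With 2 arrays per group that value cannot decide whether the numbers mark a pairing. The alternatives given for the pathway lists were chosen after seeing the data.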
